A study of Homo sapiens with 2 samples.

Results

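The heterogeneous nuclear ribonucleoprotein (hnRNP) genes were the rows of the deposited expression table whose symbol starts with HNRNP and holds no hyphen. They made up 33 of 14914 listed features, of which 21 are genes and 12 carry pseudogene symbols, ending in P and a number. The study recovered RNA with CSTF2 (the IP library) and compared it with input RNA (the Input library) in HUH7 cells, an established human hepatocellular carcinoma line that carries no further treatment or genetic change in the labels. The labels give 1 IP library and 1 Input library, so no difference below has a replicate check. A mock immunoprecipitation was not analysed here, and RNA bound by CSTF2 cannot be told apart here from RNA recovered in other ways.

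hnRNP proteins coat nascent pre-mRNA in the nucleus and steer its splicing, 3' end formation, export, stability and translation. Most bind RNA through RNA recognition motifs or KH domains, and many shuttle between nucleus and cytoplasm. CSTF2 (CstF-64) contacts GU-rich RNA downstream of cleavage sites, as a part of the cleavage stimulation factor. Members of the F/H class are known to bind G-rich RNA near poly(A) sites, and hnRNP F has been described as a competitor of CstF binding. Several hnRNP mRNAs have been copied back into the genome as processed pseudogenes, which lack introns and resemble their parent mRNA.

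The assigned depth was 3220045 IP reads and 9517885 Input reads, so the Input was 2.96 times deeper. Reads came mostly in even numbers: of features with 1 to 19 reads, 74.9% had an even number in the IP and 71.8% in the Input. All 14 hnRNP values in that range in the IP and all 7 in the Input were even, as when both mates of a read pair are counted. The 95% intervals below therefore treat 2 reads as 1 observation. They cover counting error only. All 10 hepatocyte and liver cancer markers looked up were listed, among them ALB with an IP level of 200.3 RPKM and an Input level of 254 RPKM. Of these 10, 7 were lower in the IP and 3 were higher. TTR alone was past 2-fold, with an IP level of 1.43 RPKM and an Input level of 4.25 RPKM. Of 10 markers of blood, stromal, endothelial and bile duct cells, 5 were listed (CD68, LYZ, COL1A2, LUM and KRT19) and the other 5 were not analysed here. The 5 summed to 642 IP reads and 1410 Input reads. CD68 had 22 IP reads and 12 Input reads, COL1A2 58 IP and 130 Input, LUM 50 IP and 208 Input, and LYZ 4 IP and 26 Input. By RPKM, CD68, COL1A2 and KRT19 were higher in the IP, and LUM and LYZ were lower. KRT19, the bile duct keratin, had an IP level of 67.5 RPKM and an Input level of 46.5 RPKM. The part of these markers in the results was not tested.

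Sequences are shown first for the pseudogenes, because how far a pseudogene differs from its parent sets whether a read can be told apart. The pseudogenes shown are the 4 that the IP held at least 2-fold higher and the 1 with the lowest ratio. For each, the 60 aligned bases without a gap that differ most from the parent's coding sequence are given. The same stretch of the parent stands below, 5' to 3' on the transcribed strand, from GENCODE v29 transcripts on GRCh38. Capitals mark the bases that differ.
HNRNPA1P68, chr1:100941385-100941444, minus strand: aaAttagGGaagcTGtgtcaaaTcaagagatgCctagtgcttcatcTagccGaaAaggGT
HNRNPA1, coding bases 527 to 586: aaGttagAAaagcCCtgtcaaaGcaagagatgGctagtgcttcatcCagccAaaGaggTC
HNRNPA1P7, chr18:32412471-32412530, minus strand: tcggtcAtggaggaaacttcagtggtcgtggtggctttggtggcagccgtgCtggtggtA
HNRNPA1, coding bases 647 to 706: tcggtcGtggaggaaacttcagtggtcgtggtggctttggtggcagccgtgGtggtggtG
HNRNPCP1, chr14:58521736-58521795, plus strand: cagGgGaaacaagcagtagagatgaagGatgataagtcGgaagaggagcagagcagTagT
HNRNPC, coding bases 622 to 681: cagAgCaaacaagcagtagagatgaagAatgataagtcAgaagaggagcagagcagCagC
HNRNPA3P6, chr3:75215128-75215187, plus strand: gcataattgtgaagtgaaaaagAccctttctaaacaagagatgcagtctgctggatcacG
HNRNPA3, coding bases 513 to 572: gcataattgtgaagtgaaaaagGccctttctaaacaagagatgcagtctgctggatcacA
HNRNPA3P5, chr13:65788253-65788312, minus strand: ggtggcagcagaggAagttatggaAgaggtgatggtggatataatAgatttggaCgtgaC
HNRNPA3, coding bases 694 to 753: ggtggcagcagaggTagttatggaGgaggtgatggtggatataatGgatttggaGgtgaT

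These stretches hold 12 differences for HNRNPA1P68, 6 for HNRNPCP1, 5 for HNRNPA3P5, 3 for HNRNPA1P7 and 2 for HNRNPA3P6. Over aligned bases, leaving out gaps, identity to the parent ran from 89.6% for HNRNPA1P68 to 99.6% for HNRNPA3P6 and HNRNPA1P10 among the 12 pseudogenes. Gap bases were most for HNRNPCP1 (115), HNRNPA1P68 (61) and HNRNPA3P6 (54).

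None of the 21 hnRNP genes reached a 2-fold difference between IP and Input in either direction. The measure was log2((IP + 1)/(Input + 1)) of RPKM (reads per kilobase of exon, scaled to library depth), taken where the mean of both libraries reached 1 RPKM. By that measure 5.81% of protein-coding features reached 2-fold higher in the IP and 5.19% reached 2-fold lower. Over all 9880 features past the filter, the shares were 9.88% higher and 6.83% lower, 16.7% in all. Among protein-coding features with a mean from 5 RPKM upwards, a level that 19 of the hnRNP genes reached, they were 7.18% higher and 9.25% lower. All 21 genes passed the filter, and their median log2 ratio was 0.10, against 0.17 for all features and 0.15 for protein-coding features. The genes lay between -0.44 (HNRNPLL) and 0.90 (HNRNPUL1), and 10 were above the median of all features. Together the 21 genes took 0.526% of the IP reads and 0.502% of the Input reads.

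HNRNPA1, HNRNPAB, HNRNPA2B1, HNRNPA3 and HNRNPU were the 5 highest genes by RPKM in both libraries, in that order. HNRNPA1 alone held 19.9% of the IP reads of the 21 genes and 24.3% of their Input reads. The order changed most for HNRNPUL1, which was number 8 by RPKM in the IP and number 14 in the Input. HNRNPLL and HNRNPA1L2 were the 2 lowest in both libraries, each under 2 RPKM.

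**Figure D1:**
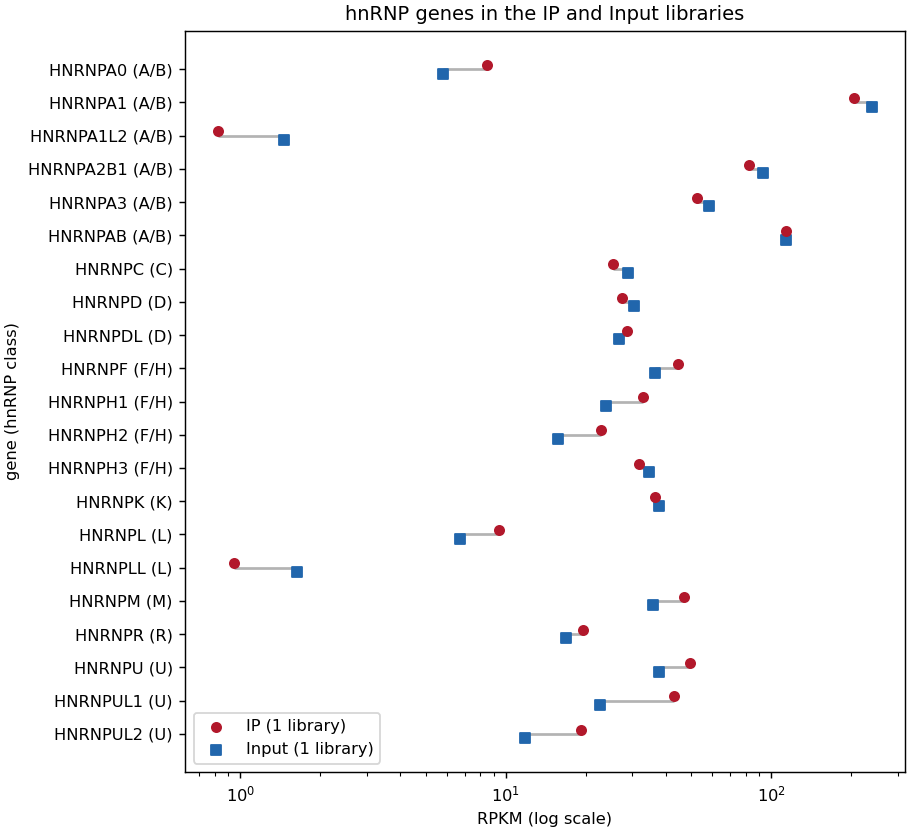
RPKM of each hnRNP gene (log axis) in the IP library (circles) and the Input library (squares), 1 library each, with the hnRNP class in brackets. The line between the points is longest on this axis for HNRNPUL1 at 42.9 RPKM (IP) and 22.6 RPKM (Input), and HNRNPAB has both points at 113 RPKM.

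The A/B class, small proteins with paired RNA recognition motifs and a glycine-rich tail, held the most abundant mRNAs, and only HNRNPA0 among its 6 genes had an interval above 1. Its summed reads gave a ratio of 0.897 (0.864 to 0.931). HNRNPA1 (chromosome 12, 54280193 to 54287088, plus strand), which encodes a splicing repressor that shuttles to the cytoplasm, had an IP level of 205 RPKM and an Input level of 239 RPKM. Its ratio of 0.858 had an interval of 0.812 to 0.906. HNRNPA2B1, whose protein is tied to m6A-dependent RNA processing, had an IP level of 82.5 RPKM and an Input level of 92.8 RPKM, a ratio of 0.890 (0.828 to 0.955).

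HNRNPA3, a close relative of both, had an IP level of 52.6 RPKM and an Input level of 58.5 RPKM, a ratio of 0.898 (0.812 to 0.993). These 3 abundant mRNAs thus sat in a narrow range just under 1, and each interval also ended below 1.16, the median RPKM ratio of all features. This median, here and below, is over features past the filter and leaves out those without Input reads. HNRNPAB, whose protein was found as a partner of the APOB mRNA editing enzyme, stood at 113 RPKM in both libraries, and the interval of its ratio, 0.890 to 1.12, lay around 1. PHYKPL, on the other strand, overlaps 9.14% of the HNRNPAB exon sequence and was listed with 33 IP reads and 38 Input reads. CBX3 overlaps 3.97% of that of HNRNPA2B1 in the same way and had a ratio of 0.502. That share rests on 9267 bases in GENCODE v29, while the recovered length of HNRNPA2B1 was 7541 bases.

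HNRNPA0, an intronless gene of the class, differed in direction, with an IP level of 8.51 RPKM and an Input level of 5.78 RPKM. Its ratio was 1.47 (1.17 to 1.84), and this interval did not overlap those of HNRNPA1, HNRNPA2B1, HNRNPA3 or HNRNPAB. HNRNPA1L2, a retrocopy of HNRNPA1 that is annotated as coding, rested on 8 IP reads and 42 Input reads, a ratio of 0.563 (0.141 to 1.67) that leaves its direction undetermined at this depth.

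HNRNPC encodes the protein that binds uridine tracts of pre-mRNA as a tetramer and keeps Alu elements from being spliced in. It had an IP level of 25.2 RPKM and an Input level of 28.8 RPKM, a ratio of 0.877 (0.767 to 0.999), which was close to that of the abundant A/B genes. HNRNPD, or AUF1, whose protein binds AU-rich elements of short-lived mRNAs, had an IP level of 27.4 RPKM and an Input level of 30.4 RPKM. Its ratio was 0.903 (0.793 to 1.03), and that of its paralog HNRNPDL was 1.08 (0.927 to 1.24), with an IP level of 28.7 RPKM and an Input level of 26.7 RPKM. Both intervals of the D class include 1, and they overlap each other.

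The F/H class binds runs of G through its variant RNA recognition motifs, and 3 of its 4 genes had intervals above 1, with a summed ratio of 1.20 (1.12 to 1.29). That summed interval includes 1.16, the median RPKM ratio of all features, and of the 4 genes only HNRNPH1 had an interval above this median and only HNRNPH3 one below it. HNRNPH1 had an IP level of 33.0 RPKM and an Input level of 23.95 RPKM, a ratio of 1.38 (1.24 to 1.53). HNRNPF had an IP level of 44.7 RPKM and an Input level of 36.6 RPKM, a ratio of 1.22 (1.04 to 1.42). HNRNPH3, which lacks one of the RNA recognition motifs of the others, went the other way with an IP level of 31.8 RPKM and an Input level of 34.6 RPKM. Its ratio was 0.918 (0.799 to 1.05), an interval that does not reach that of HNRNPH1.

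HNRNPH2 (chromosome X, 101408295 to 101414133, plus strand) encodes a protein nearly the same as that of HNRNPH1, so reads of the pair may be shared. It had an IP level of 22.8 RPKM and an Input level of 15.7 RPKM, from 163 IP reads and 332 Input reads, a ratio of 1.45 (1.10 to 1.90). Its locus is joined by the readthrough RPL36A-HNRNPH2, whose exons cover 16.3% of the HNRNPH2 exon sequence. The readthrough was listed with 1240 IP reads and 4787 Input reads, close to the 1204 and 4727 of RPL36A, and its ratio was 0.766, with an interval that ended at 0.837. The ratio of HNRNPH2 was thus unlike that of the readthrough row, and was near that of HNRNPH1.

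HNRNPK, whose KH domains bind C-rich RNA and DNA, was one of the flattest genes, with an IP level of 36.4 RPKM and an Input level of 37.7 RPKM, a ratio of 0.964 (0.844 to 1.10). HNRNPM, a splicing regulator of epithelial and mesenchymal isoforms, had an IP level of 46.9 RPKM and an Input level of 35.7 RPKM, a ratio of 1.31 (1.17 to 1.47). HNRNPR, a relative of SYNCRIP, had an IP level of 19.6 RPKM and an Input level of 16.9 RPKM, and its ratio of 1.16, with an interval that ended at 1.34, was close to the median of all features.

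The L pair differed in level. HNRNPL, which binds CA repeats, had an IP level of 9.42 RPKM and an Input level of 6.70 RPKM, a ratio of 1.41 (1.10 to 1.79). HNRNPLL, known for controlling CD45 splicing in lymphocytes, had an IP level of 0.944 RPKM and an Input level of 1.63 RPKM. Its 18 IP reads and 92 Input reads gave a ratio of 0.578 (0.249 to 1.20), whose interval overlaps that of HNRNPL.

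The U class stood highest. Among the classes with at least 3 genes (A/B, F/H and U), only its intervals all lay above 1.16, the median RPKM ratio of all features. That of HNRNPM, alone in its class, did so too (1.17 to 1.47). The share of all features with such intervals was not taken. U class proteins carry a SAP domain and an RGG tail. HNRNPU, also called scaffold attachment factor A, ties chromatin to nuclear RNA. The class had a summed ratio of 1.45 (1.37 to 1.54). HNRNPU had an IP level of 49.3 RPKM and an Input level of 37.9 RPKM, a ratio of 1.30 (1.21 to 1.40). HNRNPUL1 (chromosome 19, 41262496 to 41307598, plus strand), whose protein takes part in the DNA damage response, had an IP level of 42.9 RPKM and an Input level of 22.6 RPKM. Its ratio was 1.90 (1.68 to 2.14), from 904 IP reads and 1407 Input reads, and the interval did not overlap that of HNRNPU. COX20, on the other strand, had a ratio of 0.648, lower than that of HNRNPU. It overlaps 15.6% of the HNRNPU exon sequence in GENCODE v29, which is 22512 bases long. The length recovered from the deposited values was 13564 bases, so the overlap with the counted exons is not known.

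The log2 ratio of HNRNPUL1 was higher than that of 91.4% of protein-coding features and 87.3% of all features past the filter. Its exons overlap those of TGFB1, on the other strand, over 215 bp (3.29% of the HNRNPUL1 exon length), and TGFB1 had an IP level of 12.8 RPKM and an Input level of 8.21 RPKM. HNRNPUL2 (chromosome 11, 62712630 to 62727472, minus strand), whose protein acts with that of HNRNPUL1 at DNA breaks, had an IP level of 19.1 RPKM and an Input level of 11.8 RPKM, a ratio of 1.62 (1.33 to 1.97). In GENCODE v29, the readthrough HNRNPUL2-BSCL2 covers 44.1% of the HNRNPUL2 exon sequence. It was listed with 335 IP reads and 573 Input reads, beside 326 and 593 for HNRNPUL2 and 18 and 22 for BSCL2. The ratio of the readthrough row was 1.73 (1.42 to 2.10), and its reads cannot be separated from those of HNRNPUL2.

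**Figure D2:**
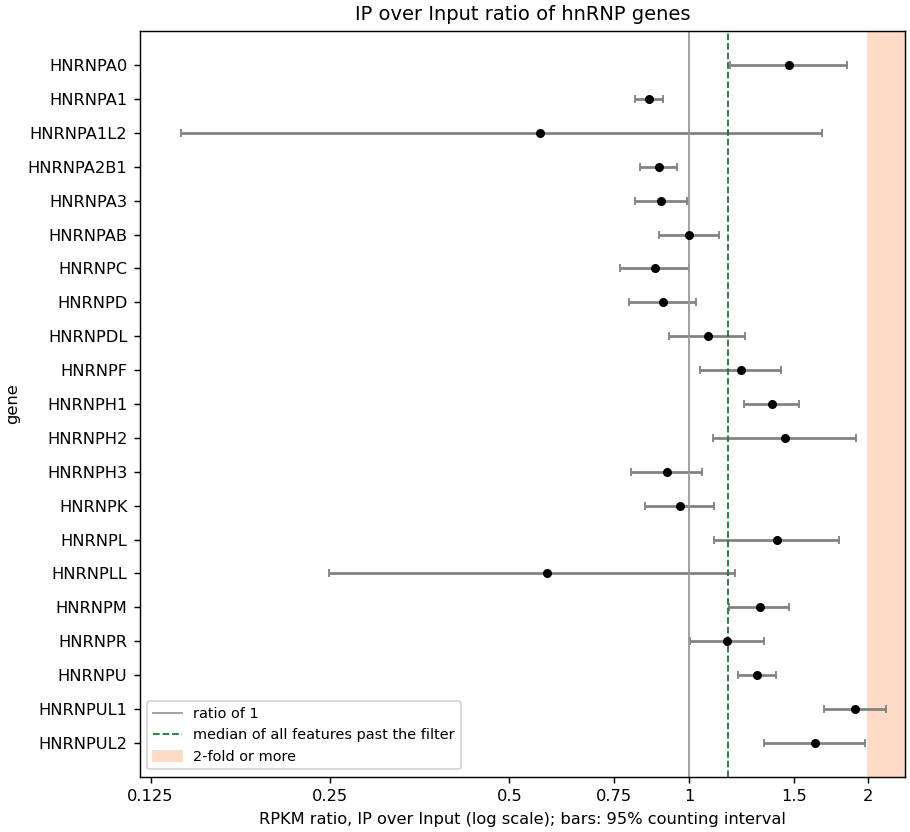
Ratio of RPKM in the IP over the Input for each hnRNP gene (points, log axis) with its 95% counting interval (bars). Also drawn are the ratio of 1 (solid line), the median of all features with Input reads (dashed line) and the range of 2-fold or more (shaded). HNRNPUL1 at 1.90 is the only gene whose interval enters the shaded range, which covers ratios of 2 or more. The wide intervals of HNRNPA1L2 and HNRNPLL reach past 2-fold lower, where nothing is shaded.

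Across the 21 genes, 10 intervals lay above 1, 4 below 1 and 7 included it. Set against 1.16, the median RPKM ratio of all features with Input reads, 6 lay above and 8 below, so the balance between higher and lower turns with the scale. Of the 6, HNRNPM and HNRNPA0 began only just above it, both at 1.17. Over all features, 26.7% of intervals lay above 1 and 13.4% below, while no such share was taken against 1.16. Intervals narrow with more reads, so these counts are descriptions of the genes only. The scale of a ratio depends on depth, which mitochondrial and small RNAs share. With the depth of nuclear protein-coding genes only (33.3% of the IP depth and 28.9% of the Input depth), every log2 ratio without a pseudocount shifts by -0.20. Relative to the median of all features, HNRNPDL and HNRNPAB had log2 ratios of -0.07 and -0.17, so their direction flips with the scaling, and HNRNPR was at 0.03. Log2 ratio and exon length had a Spearman rho of 0.15 over the 21 genes and 0.38 over 7625 protein-coding features. Both are descriptions over genes that share the 2 libraries.

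CSTF2 is known for contacting GU-rich RNA, so the motif TGTGT was counted on the transcribed strand in the last 300 bases of the longest coding transcript of each gene. It was found for 14 of the 21 hnRNP genes (66.7%) and for 44.9% of 7614 protein-coding features. The motif can overlap itself, and sequence downstream of the cleavage site was not used here. A poly(A) signal, AATAAA or ATTAAA, stood close to the transcript end for 18 of the 21 genes (85.7%) and for 79.1% of protein-coding features. HNRNPUL1, HNRNPF and HNRNPK had neither there. A match is shown for the gene with the highest ratio, for the H pair, whose sites resemble each other, and for HNRNPA1, the most abundant, with the motif in capitals.
HNRNPUL1: cacacaagcttcTGTGTtcagttgaattg
HNRNPH1: caatataggagcTGTGTctactattaaaa
HNRNPH2: aaatataggagcTGTGTctacgattcaaa
HNRNPA1: agtggatataacTGTGTagtcattcacct
The genes with no match were HNRNPAB, HNRNPF, HNRNPH3, HNRNPL, HNRNPM, HNRNPR and HNRNPU, whose log2 ratios ran from -0.12 for HNRNPH3 to 0.44 for HNRNPL. Genes with a match ran from -0.44 to 0.90, so the ranges overlap. Of the genes with no match, only HNRNPH3 had a negative log2 ratio. With a match, HNRNPA1, HNRNPA1L2, HNRNPA2B1, HNRNPA3, HNRNPC, HNRNPD, HNRNPK and HNRNPLL were negative. HNRNPA0, HNRNPDL, HNRNPH1, HNRNPH2, HNRNPUL1 and HNRNPUL2, also with a match, were positive. The part of the motif in the ratios was not tested.

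The 12 pseudogenes were all low. They summed to 106 IP reads and 158 Input reads, and none exceeded 5.68 RPKM in either library. Their parents are HNRNPA1 (6 pseudogenes), HNRNPA3 (2), HNRNPC (2), HNRNPK (1) and HNRNPL (1). GENCODE v29 names 75, 16, 9, 5 and 2 such loci for these parents, and the others were not analysed here. Per parent, the pseudogene reads in the IP equalled 1.72% of those of HNRNPA1, against 0.707% in the Input. For HNRNPA3 the share was 1.96% (IP) and 1.13% (Input), and for HNRNPC it was 3.37% (IP) and 1.30% (Input). Summing these reads with the parent's moved no parent ratio out of its interval. HNRNPA1, for example, had 0.866 with its pseudogenes and 0.858 without. The larger IP share of the HNRNPA1 pseudogenes came from HNRNPA1P68, HNRNPA1P7 and HNRNPA1P53, whose Input reads alone would not have had them listed. These 3 summed to 32 IP reads and 2 Input reads. The other 3, HNRNPA1P10, HNRNPA1P33 and HNRNPA1P48, summed to 26 IP reads and 80 Input reads, a depth-scaled ratio of 0.961.

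**Figure D3:**
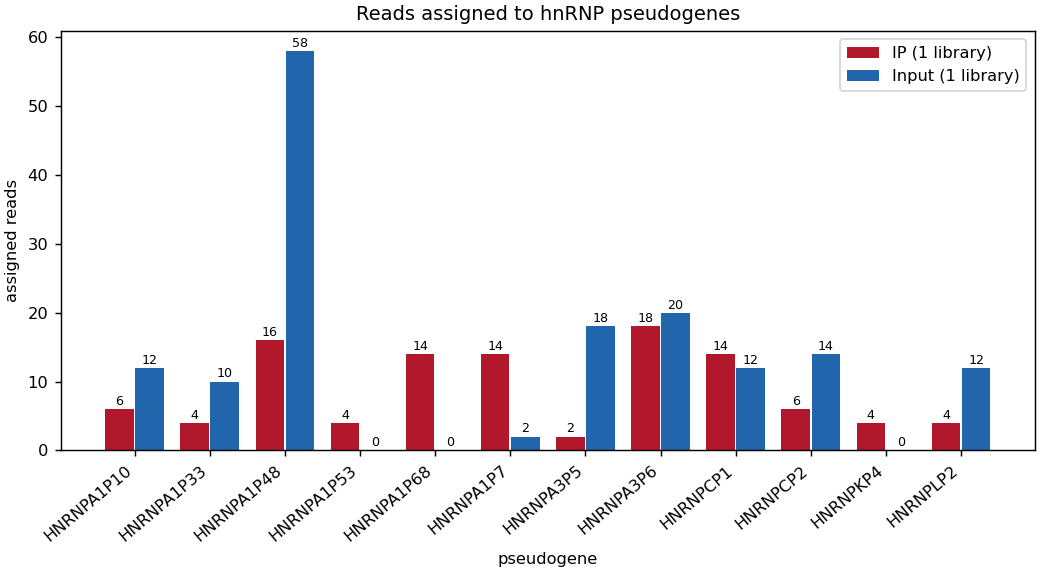
Assigned reads of each hnRNP pseudogene in the IP library (left bar of each pair) and the Input library (right bar), 1 library each, not scaled for depth. HNRNPA1P68, HNRNPA1P53 and HNRNPKP4 have 0 Input reads, and HNRNPA1P48 has the most over both libraries, with 16 in the IP and 58 in the Input, while HNRNPA3P6 has the tallest IP bar, at 18 reads.

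Of the 12 pseudogenes, 9 passed the filter on mean RPKM, and the IP held 4 of those at least 2-fold higher, against 9.88% of all features past the filter. Among 225 features past the filter that GENCODE types as pseudogenes, 40.9% were at least 2-fold higher. None was lower by 2-fold or more, against 6.83% of all features and 7.56% of those typed as pseudogenes. The table appears to list a feature only from about 1.05 CPM (counts scaled to library depth) upwards in its better covered library. A feature with 0 Input reads was listed from 4 IP reads, and one with 0 IP reads from 10 Input reads, so a pseudogene with few reads could enter through the IP more easily. HNRNPA1P68 and HNRNPA1P7 passed the filter through the IP alone, so they had to differ, and the count of 4 is a description only.

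HNRNPA1P68 is a processed pseudogene on chromosome 1 (100941017 to 100941995, minus strand) within an intron of SLC30A7, which lies on the other strand. Its 14 IP reads gave 4.44 RPKM, and it had 0 Input reads. It was listed and passed the filter through the IP alone, so it had to be higher there. Set over an assumed floor of 3 read pairs (6 reads) in the Input, its IP reads gave a ratio of 6.90. The 95% interval, which allows for counting error, began at 4.26. Both values are descriptions of this row only. Its parent HNRNPA1 had a ratio of 0.858 and the host gene SLC30A7 1.19 RPKM (IP) and 1.84 RPKM (Input). None of its 100-base windows occurs unchanged in a GENCODE transcript of another gene, and its longest run identical to the aligned HNRNPA1 transcript was 45 bases.

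HNRNPA1P7, on chromosome 18 (32412214 to 32413176, minus strand), had 14 IP reads and 2 Input reads, with an IP level of 4.51 RPKM and an Input level of 0.218 RPKM. The ratio of 20.7 had an interval of 2.66 to 933. It is 99.1% identical to HNRNPA1, with one shared run of 652 bases, and 66.7% of its 100-base windows occur in transcripts of other genes. The long noncoding RNA AC021224.1 covers 79.4% of it on the other strand and was listed with the same 14 and 2 reads, so the locus is counted under both names. GAREM1, in whose intron it lies on the same strand, had an IP level of 0.328 RPKM and an Input level of 0.736 RPKM.

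HNRNPCP1, on chromosome 14 (58521223 to 58521988, plus strand) within an intron of KIAA0586 on the same strand, had 14 IP reads and 12 Input reads. This gave 5.68 RPKM (IP) and 1.65 RPKM (Input), a ratio of 3.45 whose interval of 0.992 to 12.4 includes 1. The host gene KIAA0586 had an IP level of 1.13 RPKM and an Input level of 1.38 RPKM. Identity to HNRNPC was 94.1% over aligned bases, leaving out 115 gap bases, and none of its 100-base windows occurs unchanged in another gene.

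HNRNPA3P6, on chromosome 3 (75214631 to 75215636, plus strand), had 18 IP reads and 20 Input reads, with an IP level of 5.56 RPKM and an Input level of 2.09 RPKM. Its ratio of 2.66 had an interval of 0.956 to 7.28, which includes 1 as well. It is 99.6% identical to HNRNPA3 over aligned bases, with 1 gap of 54 bases left out. Of its 100-base windows, 60.1% occur in other genes. HNRNPA3P5 had the lowest ratio of the pseudogenes with reads in both libraries, 0.328 (0.00749 to 2.37), from 2 IP reads and 18 Input reads. The pair from one parent thus lay on opposite sides of 1, with intervals that overlap.

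HNRNPA1P48, on chromosome 16 (51553436 to 51647132, plus strand), is typed as protein-coding in GENCODE v29 despite its symbol, and it had the most reads of the 12 over both libraries. With 3.61 RPKM (IP) and 4.43 RPKM (Input), its ratio of 0.815 (0.322 to 1.83) was close to the 0.858 of its parent. HNRNPA1P10, HNRNPA1P33 and HNRNPCP2 had ratios of 1.48, 1.18 and 1.27 from 18, 14 and 20 reads over both libraries, and their intervals include 1. Their levels were 1.94, 2.21 and 2.12 RPKM in the IP, against 1.31, 1.87 and 1.67 RPKM in the Input, in the same order. Under the filter, HNRNPA1P53 and HNRNPKP4 were each listed with 4 IP reads and 0 Input reads, too few for a fold. HNRNPLP2 had 4 IP reads and 12 Input reads, a ratio of 0.985 (0.0973 to 5.51).

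The share of sequence that a pseudogene has in common with other genes is set beside its ratio here as a description only. HNRNPA1P68 and HNRNPA1P7 passed the filter through the IP alone, and the intervals of HNRNPCP1 and HNRNPA3P6 include 1. Of the 4 at least 2-fold higher, HNRNPA1P68 and HNRNPCP1 had 0% of 100-base windows in other genes, and HNRNPA1P7 and HNRNPA3P6 had 66.7% and 60.1%. HNRNPA1P10, at 63.6%, and HNRNPA1P33, at 1.08%, were within 2-fold. The sources used here give neither the read length nor the treatment of reads with several matches, so the part of shared reads in these values was not tested.

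**Figure D4:**
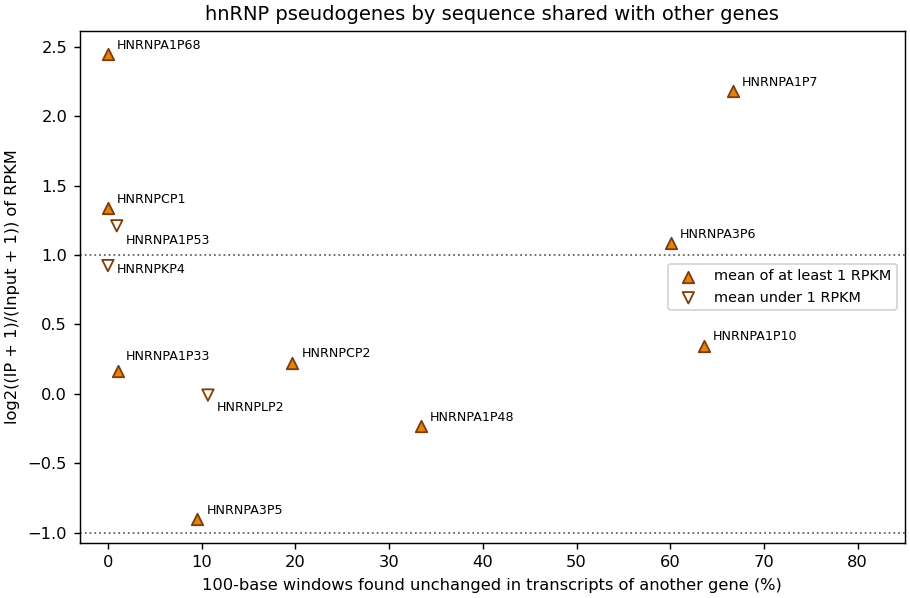
Log2((IP + 1)/(Input + 1)) of RPKM for each of the 12 hnRNP pseudogenes against the percent of its 100-base windows that occur unchanged in GENCODE v29 transcripts of another gene. Filled triangles have a mean of at least 1 RPKM, open ones less, and the 4 filled points above the dotted line at 1 lie at both ends of the horizontal axis.

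**Figure D5:**
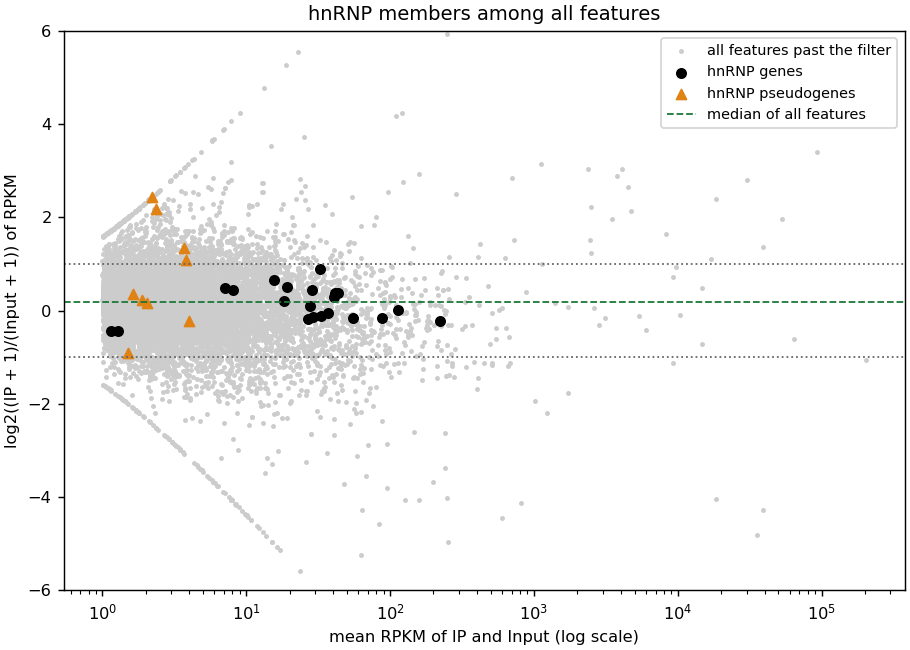
Log2((IP + 1)/(Input + 1)) of RPKM against mean RPKM (log axis) for the 9880 features past the filter (grey), the 21 hnRNP genes (black) and the 9 hnRNP pseudogenes past it (orange). Dotted lines mark 2-fold, the dashed line is the median of 0.17, and 4 features fall outside the plotted range. The genes lie between the dotted lines, while the pseudogenes sit among the low features, where the spread is wide.

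Proteins of the hnRNP group whose genes have other symbols were looked up beside the named ones. Of 18 such genes, 16 were listed and 14 passed the filter, and 1 was higher in the IP by 2-fold or more and 0 were lower by that much, against 5.81% and 5.19% of protein-coding features. Their median log2 ratio was 0.14, against 0.10 for the 21 hnRNP genes. KHSRP, a KH-domain protein of splicing and AU-rich mRNA decay, had the highest ratio, with an IP level of 63.1 RPKM and an Input level of 26.2 RPKM, a ratio of 2.41 (2.13 to 2.73). Its interval was near that of HNRNPUL1 and overlapped it only narrowly. PTBP1 (hnRNP I), a pyrimidine tract binder, had an IP level of 7.44 RPKM and an Input level of 4.56 RPKM, a ratio of 1.63 (1.23 to 2.15).

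Among those past the filter, the lowest by log2 ratio were both poly(C)-binding proteins of the E class. PCBP2 had an IP level of 23.0 RPKM and an Input level of 30.6 RPKM, a ratio of 0.753 (0.661 to 0.857). PCBP4 had a ratio of 0.712 (0.318 to 1.44) from 20 IP reads and 83 Input reads. Of 6 import receptors and arginine methyltransferases that act on hnRNP proteins, 0 were past 2-fold in either direction. Among protein-coding features, 5.81% passed that limit upwards and 5.19% downwards, so 0 of 6 genes cannot be told from those shares. The median log2 ratio of the 6 was 0.33, where that of all features was 0.17. TNPO2 and KPNB1 had the highest log2 ratios, 0.59 and 0.42, with RPKM ratios of 1.84 (1.14 to 2.91) and 1.36 (1.16 to 1.58). PRMT5, next at a log2 ratio of 0.39, had the larger RPKM ratio of 1.40 (0.861 to 2.24), since the pseudocount weighs more on its lower level. PRMT1 and TNPO1 had the lowest, with RPKM ratios of 0.849 (0.661 to 1.08) and 0.871 (0.581 to 1.28). TNPO1 is the transportin that carries HNRNPA1 protein into the nucleus, and PRMT1 methylates the RGG tails of many hnRNP proteins.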

How the data were processed

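The deposited values are RPKM, 1 column per library, beside a log2 fold change, per the file headers. FastQC 0.12.0 and the build hg38 come from the submitters' processing notes. The sources used here name no aligner, counter or annotation and do not state strand, so overlapping and antisense genes are not told apart. Per the labels' protocols, a RIP kit was used and fragmented RNA was copied from random hexamers.

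Reads and gene lengths were recovered from the deposited RPKM and log2 fold change assuming that the authors' fold change adds a prior of 0.125 reads, scaled to depth, to each library, with a tolerance of 0.01 reads, for 14913 of 14914 features. The steps were tested on simulated data. Names were matched to GENCODE v29 (GRCh38). The recovered length equalled its exon length for 28 of the 33 members and differed for 5 (HNRNPA1L2, HNRNPA1P48, HNRNPA2B1, HNRNPU and HNRNPUL2), so another annotation was probably used for these.

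IP and Input were compared by log2((IP + 1)/(Input + 1)) of RPKM, with a pseudocount of 1 RPKM that understates changes of low features, a filter of 1 RPKM mean and a 2-fold limit. With 1 library per group, no test was run. Ratios of RPKM carry an exact conditional (Clopper-Pearson) 95% interval on reads divided by 2, a choice made after the even read numbers were seen. Pseudogene and parent transcripts were aligned locally with Biopython 1.88, and windows were compared exactly. SciPy 1.17.1 and pandas 2.3.3 were used. Every member is named, and the related lists give their 2 highest and 2 lowest genes. The members and lists were chosen with earlier results of these data known. Alternatives were other pseudocounts, filters, centring, folds, a read minimum, summed parent and pseudogene reads, and another depth.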

Additional observations from a re-analysis of the deposited data

How the results depend on the processing

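No paired analysis was possible because each group has 1 library. The count of 0 hnRNP genes past 2-fold in either direction held with pseudocounts of 0.1 and 5 RPKM, no filter, a filter of 5 RPKM, centring on the median of all features, at least 20 reads and the depth of nuclear protein-coding genes. At 1.5-fold, 2 genes were higher (HNRNPUL1 and HNRNPUL2) and 0 lower. The median log2 ratio of the genes ran from -0.10 with that depth to 0.20 with the filter of 5 RPKM. Of the pseudogenes, 4 were higher at first, 0 with a pseudocount of 5 RPKM and 2 with at least 20 reads. They were 3 when centred or with the depth of nuclear protein-coding genes, both of which leave out HNRNPA3P6, 3 without HNRNPA1P7, and 5 with no filter. None passed a filter of 5 RPKM. HNRNPA3P5 was the 1 pseudogene lower with a pseudocount of 0.1 RPKM, when centred, and at 1.5-fold. At 1.5-fold, 2 related hnRNP proteins and 1 of the import receptors and methyltransferases were higher. Intervals on single reads were narrower: 1.48 to 8.16 for HNRNPCP1 and 1.33 to 5.30 for HNRNPA3P6, both then above 1, with HNRNPD (0.824 to 0.989) and HNRNPLL (0.328 to 0.966) then below it. The depth of nuclear protein-coding genes, the omission of HNRNPA1P7, the single-read intervals and all settings of the related lists were chosen after the data were seen.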
